A study of Xenopus laevis with 6 samples.

Results

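The cyclin G genes *ccng1* and *ccng2* were examined in RNA-seq of whole *Xenopus laevis* embryos at stage 23 (early tailbud). All features named *ccng1* or *ccng2* once a final .L or .S is removed were taken, which gave 4 features of the 44958 counted: *ccng1.L*, *ccng1.S*, *ccng2.L* and *ccng2.S*. *X. laevis* is allotetraploid, and .L and .S are the homeologous copies on its long and short chromosomes. The 2 genes were selected on measured values, namely their difference in counts between neil2 MO and control MO libraries, so their levels, fold changes and homeolog shares between these groups are given as a description, without a test.

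Embryos were injected into the animal hemisphere at the 1-cell stage with 40 ng of neil2 MO or with the same amount of control MO. Morpholinos (MO) are synthetic antisense oligomers that bind an RNA and hinder its translation or its splicing. Neil2 is a DNA glycosylase that removes oxidized bases in base excision repair. There were 3 neil2 MO and 3 control MO libraries, each from polyadenylated RNA of a pool of 6 embryos. No other allele or agent is named for either group, and no strain is given.

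Cyclin G proteins carry a cyclin box, but are not classed with the cyclins that drive the cell cycle by activating a cyclin-dependent kinase. In mammalian cells, cyclin G1 recruits protein phosphatase 2A (PP2A) through its B′ regulatory subunits, encoded by the *ppp2r5* genes. It also binds Mdm2, and its gene is a well-known target of the DNA damage checkpoint. Cyclin G2 is associated with cell-cycle exit in mammalian cells, and its gene is a target of FoxO transcription factors there.

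The injected oligonucleotides are shown because they are what distinguishes the groups. Both have 25 bases and are written 5′ to 3′. Capitals in the neil2 MO mark the complement of a start codon.
neil2 MO: gtctgactgtgggaccttccggCAT
Control MO: cctcttacctcagttacaatttata

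Counted reads per library ranged from 11534725 to 24034094, and 3 counts, taken here as the floor, corresponded to 0.125 to 0.260 CPM (counts scaled to a fixed library total, per 1000000 counted reads). An MO that blocks translation need not change the level of its target RNA. The *neil2.L* feature had 5, 4 and 15 reads in the neil2 MO libraries, against 3, 4 and 3 in the control MO libraries, so it did not serve as a check of the labels. Markers of epidermis and other non-neural ectoderm summed to 18539 to 22552 CPM in neil2 MO and 16787 to 19777 CPM in control MO libraries, and those of muscle to 2636 to 2737 CPM in neil2 MO and 2837 to 3322 CPM in control MO libraries. The groups overlapped for the ectoderm sum. In CPM, every neil2 MO library was below every control MO library for the muscle sum, which was not compared under the DESeq2 scaling. All 3 neil2 MO CPM values lay below all 3 control MO values in 10.3% of all features tested. Within the muscle sum, the means of the *actc1* and *myl1* features were lower in neil2 MO. Of these, only *actc1.S* had every neil2 MO library below every control MO library, and the groups overlapped for *actc1.L*, *myl1.L* and *myl1.S*. The groups also overlapped for *myod1*, which averaged 65.0 CPM in neil2 MO and 65.6 CPM in control MO for L. For S it averaged 193 CPM in neil2 MO and 180 CPM in control MO. Endoderm and liver markers summed to 1792 to 2073 CPM in neil2 MO and 1793 to 2627 CPM in control MO libraries, and blood markers to 21.3 to 32.4 CPM in neil2 MO and 25.8 to 47.6 CPM in control MO libraries, both with overlap. Most of the endoderm and liver sum was *a2m.S*, which averaged 1811 CPM in neil2 MO and 2088 CPM in control MO. *sox17a* averaged 27.8 CPM in neil2 MO and 27.0 CPM in control MO for L, and 45.9 and 46.0 CPM for S. Of the 22 tested features of these tissues, DESeq2 and edgeR called 0 (rule given below), and 0 had an unadjusted DESeq2 p below 0.05. With the replicate number as a block, edgeR called 1 as lowered, and it lowered 1288 features in all. Over all features tested, DESeq2 raised 1.17% and lowered 1.12%, so 0 calls in 22 is near these shares. An unadjusted DESeq2 p below 0.05 was found for 5.07% higher and 4.76% lower in neil2 MO. The blood genes *gata1.S* and *hba1.S* had at most 3 counts in any library.

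*ccng1* RNA was more abundant in every neil2 MO library than in any control MO library, in both homeologs. *ccng1.L* measured 668, 367 and 553 CPM in neil2 MO replicates 1 to 3, against 323, 175 and 167 CPM in control MO replicates 1 to 3. The groups did not overlap, but came close: the lowest neil2 MO library had 1.13 times the level of the highest control MO library. Within each group the libraries were spread as well, with a ratio of the highest to the lowest of 1.82 in neil2 MO and 1.93 in control MO. *ccng1.L* averaged 529 ± 152 CPM in neil2 MO and 222 ± 87.7 CPM in control MO embryos (SD, n = 3 each). Its log2 fold change, neil2 MO over control MO, was 1.31 ± 0.26 (SE) in the DESeq2 fit over all features, or 2.47-fold.

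*ccng1.S* measured 159, 97.3 and 150.3 CPM in neil2 MO libraries, against 46.5, 25.1 and 36.4 CPM in control MO libraries. For this homeolog the groups were further apart, and the lowest neil2 MO library had 2.09 times the level of the highest control MO library. It averaged 135 ± 33.3 CPM in neil2 MO and 36.0 ± 10.7 CPM in control MO embryos (SD, n = 3 each). Its log2 fold change was 1.96 ± 0.24 (SE), or 3.90-fold. With both homeologs summed in each library, *ccng1* averaged 665 ± 184 CPM in neil2 MO and 258 ± 96.7 CPM in control MO embryos, a log2 fold change of 1.42 ± 0.26 (SE).

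Replicate 2 had the lowest level of both *ccng1* homeologs among the neil2 MO libraries, and the lowest *ccng1.S* level among the control MO libraries. Same-numbered libraries deviated together over 23651 features with a mean normalized count of at least 10, with correlations of 0.585, 0.568 and 0.632. The difference was therefore also taken within each number. The within-number difference in log2 CPM, neil2 MO minus control MO, was 1.05, 1.06 and 1.72 for *ccng1.L*, and 1.77, 1.96 and 2.05 for *ccng1.S*. The spread was wider for L than for S, and replicate 3 gave the largest difference for both.

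*ccng2* RNA showed no separation of the groups in either homeolog. *ccng2.L* measured 18.2, 15.7 and 15.8 CPM in neil2 MO libraries, against 24.0, 16.4 and 14.2 CPM in control MO libraries. *ccng2.S* measured 21.7, 27.0 and 19.5 CPM in neil2 MO libraries, against 29.2, 30.9 and 16.7 CPM in control MO libraries. For both features the neil2 MO values lay within the range of the control MO values, which were the more spread. The log2 fold change was -0.082 ± 0.23 (SE) for *ccng2.L* and -0.12 ± 0.26 (SE) for *ccng2.S*. The sign turned with single libraries: *ccng2.L* was at 0.15 without control MO replicate 1, and *ccng2.S* at 0.055 without control MO replicate 2. Within replicate numbers the log2 CPM differences were -0.40, -0.055 and 0.15 for *ccng2.L* and -0.43, -0.19 and 0.22 for *ccng2.S*, so number 3 had the opposite sign to numbers 1 and 2 in both homeologs.

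**Figure D1:**
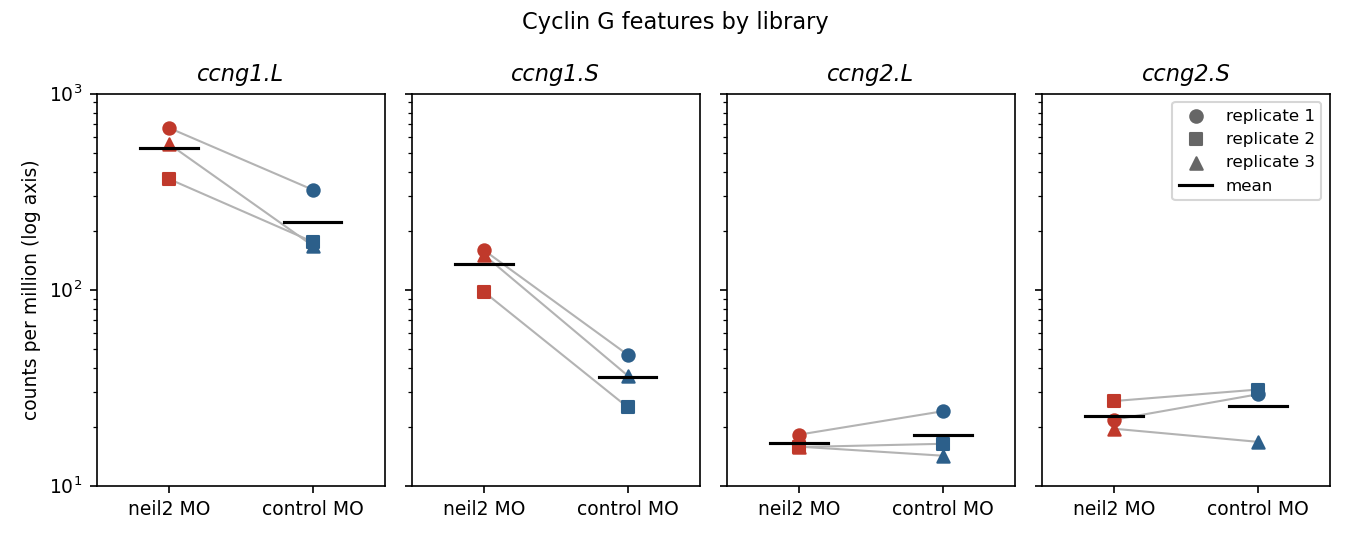
CPM (log axis) of each cyclin G feature in neil2 MO (left) and control MO (right) libraries, where grey lines join libraries of the same replicate number and black bars are means. The neil2 MO points of both *ccng1* homeologs lie above all control MO points, and those of both *ccng2* homeologs overlap them.

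To place these values, raised or lowered features were those with a DESeq2 adjusted p below 0.1 whose log2 fold change was also beyond 0.5 in size. By this rule 275 of 23457 features tested (1.17%) were raised and 262 (1.12%) were lowered. Both *ccng1* homeologs were among the raised features and neither *ccng2* homeolog was called, which says nothing beyond the selection of the genes. Ordered by fold change, *ccng1.S* was number 34 and *ccng1.L* number 71 of the 275, which include features with few reads or no symbol. Among the 199 raised features with a symbol and a mean count of 50 or more they were numbers 12 and 34. All 3 neil2 MO values lay above all 3 control MO values in 6.13% of the features tested, and below them in 10.3%. The counts over all features depended on single libraries: 142 were raised and 153 lowered without neil2 MO replicate 1, and 152 raised and 118 lowered without control MO replicate 1. With the replicate number as a block, 693 features were raised and 604 lowered, and the *ccng1* fold changes were 1.33 ± 0.14 for L and 1.97 ± 0.13 for S (log2, SE). Under edgeR 71 features were raised and 70 lowered, and *ccng1.L*, at 1.29, was no longer called. In edgeR with the replicate block, a fit chosen after the data were seen, *ccng1.L* was called, at 1.32. That fit raised 1022 features and lowered 1288.

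The share of *ccng1* reads assigned to the S homeolog was higher in neil2 MO embryos. It was 19.2% (18.6 to 19.8), 21.0% (20.1 to 21.9) and 21.4% (20.7 to 22.0) in neil2 MO replicates 1 to 3, against 12.6% (11.9 to 13.4), 12.5% (11.4 to 13.7) and 17.9% (16.3 to 19.5) in control MO replicates 1 to 3, with exact Clopper-Pearson 95% intervals that cover counting error only. The groups did not overlap, and control MO replicate 3 stood nearer to the neil2 MO libraries than the other control MO libraries did. The mean share was 20.5 ± 1.15% in neil2 MO and 14.3 ± 3.06% in control MO embryos (SD, n = 3 each). L reads outnumbered S reads in every library, by 4.21, 3.77 and 3.68 times in neil2 MO and by 6.94, 6.98 and 4.60 times in control MO libraries. These ratios also hold any difference in length and in uniquely mapping sequence between the homeologs, which is the same in all libraries, so they are not ratios of transcript number.

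In normalized counts *ccng1.L* was higher by 5601 and *ccng1.S* by 1790 in neil2 MO than in control MO embryos. The L homeolog thus made up 75.8% of the added reads and the S homeolog 24.2%, although S had the larger fold change.

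For *ccng2* the S homeolog held more reads than L in every library. Its share was 54.4% (50.7 to 58.0), 63.2% (59.7 to 66.6) and 55.2% (51.8 to 58.6) in neil2 MO libraries, against 55.0% (52.0 to 57.9), 65.4% (61.9 to 68.8) and 54.1% (48.7 to 59.3) in control MO libraries, with the same kind of interval. The groups overlapped, and replicate 2 had the highest share in both. The mean was 57.6 ± 4.86% in neil2 MO and 58.1 ± 6.31% in control MO embryos (SD, n = 3 each).

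**Figure D2:**
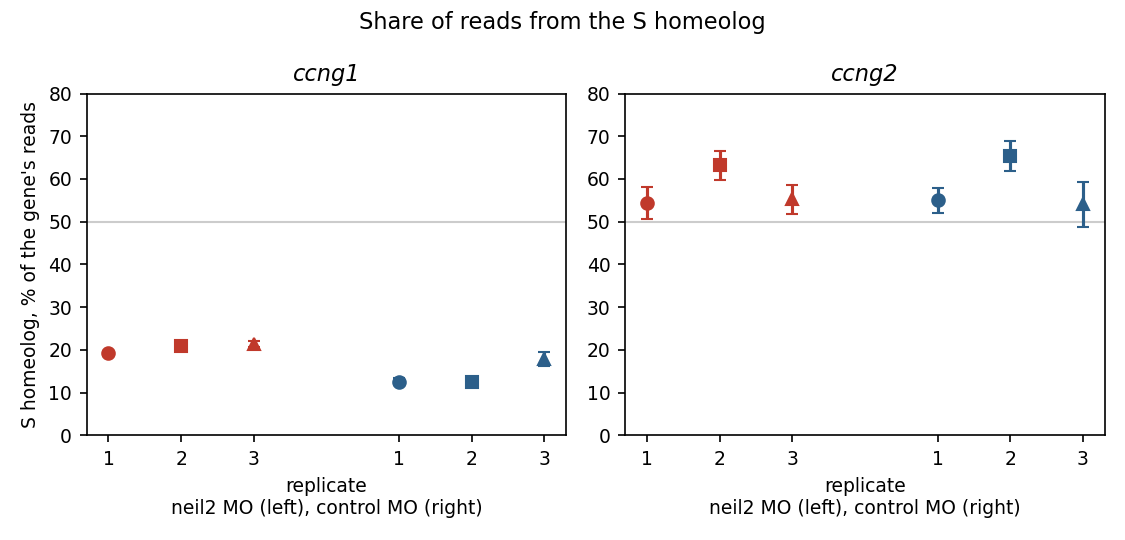
Percentage of *ccng1* (left) and *ccng2* (right) reads assigned to the S homeolog in each library, neil2 MO libraries first, with exact 95% binomial intervals as bars. The *ccng1* share lies at 19.2 to 21.4% in neil2 MO and 12.5 to 17.9% in control MO libraries, whereas the *ccng2* shares of the groups overlap.

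The log2 ratio of L to S was then set against all 7285 homeolog pairs in which each copy had 10 or more reads on average. The *ccng1* ratio averaged 1.96 in neil2 MO and 2.60 in control MO embryos, a difference of -0.64 ± 0.17 (SE, limma). The median difference over all pairs was -0.0083, and *ccng1* stood at the 4.47th percentile, where low percentiles are shifts towards S. The difference moved to -0.84 without control MO replicate 3 and to -0.54 without control MO replicate 2. The *ccng2* ratio averaged -0.44 in neil2 MO and -0.48 in control MO embryos, a difference of 0.035 ± 0.24 (SE), at the 56.7th percentile. In control MO embryos *ccng1* was among the more L-weighted pairs in reads, at the 90.1th percentile of the log2 ratio, and *ccng2* stood at the 27.4th. These ranks also hold any difference in length and uniquely mapping sequence between homeologs, so they are not ranks of transcript number. The percentiles of the difference are set among pairs that include some with few reads, whose differences hold more counting error.

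**Figure D3:**
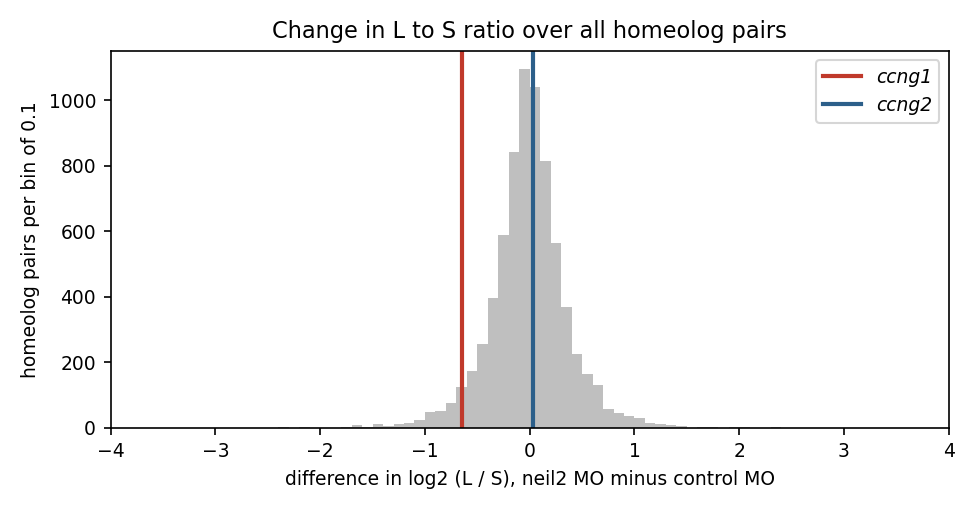
Difference in the log2 L to S ratio, neil2 MO minus control MO, for 7285 homeolog pairs in bins of 0.1, with *ccng1* and *ccng2* as vertical lines. *ccng1*, at -0.64, lies in the lower tail and *ccng2*, at 0.035, near the middle.

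Of the genes whose products are known from mammalian cells to bind or work with cyclin G proteins, the Mdm genes changed. Among 11 tested features of this list, 2 were raised and 1 was lowered, with a median log2 fold change of 0.26 against 0.012 over all features tested. Of all features tested, 1.17% were raised and 1.12% lowered. The list was drawn up with earlier results of these libraries known, so its counts are no independent evidence. *mdm2*, a ubiquitin ligase that restrains the damage checkpoint, rose in both homeologs. *mdm2.L* measured 94.2, 46.0 and 81.4 CPM in neil2 MO libraries, against 40.8, 29.7 and 32.9 CPM in control MO libraries, without overlap (log2 fold change 1.15 ± 0.25 SE, DESeq2 adjusted p = 6.85e-04). *mdm2.S* measured 138.0, 70.8 and 120.9 CPM in neil2 MO libraries, against 58.9, 48.0 and 44.2 CPM in control MO libraries, again without overlap (1.17 ± 0.23, adjusted p = 1.78e-04). Under edgeR *mdm2.L*, at 1.14, was not called, and in edgeR with the replicate block it was, at 1.10. As with *ccng1*, replicate 2 was the lowest of the neil2 MO libraries for both.

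*mdm4.S*, which encodes an Mdm2-related protein, fell. It measured 16.0, 14.1 and 20.4 CPM in neil2 MO libraries, against 33.1, 35.3 and 30.5 CPM in control MO libraries, all lower in neil2 MO (log2 fold change -0.92 ± 0.20 SE, DESeq2 adjusted p = 0.00107). The kinases Gak, named for its association with cyclin G, and Cdk5 were not called: *gak.S* was at 0.17 ± 0.16 (adjusted p = 0.892) and *cdk5.L* at 0.13 ± 0.23 (adjusted p = 0.978). *pcna*, which encodes the replication clamp, was at 0.37 for L and 0.47 for S, and *ppm1d*, a checkpoint phosphatase gene, at 0.26 for L and 0.28 for S, none of them called.

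None of 24 tested PP2A subunit features was called by DESeq2, and none had an unadjusted p below 0.05. Of the 18 symbols on this list 15 had a feature. The catalytic subunit gene *ppp2ca* and the B′ subunit gene *ppp2r5d* had none under these names. Of all features tested, 1.17% were raised and 1.12% lowered. The count of called PP2A features was also 0 under edgeR and with the replicate block in either tool. Of the B′ subunits, *ppp2r5a* was at 0.25 for L and 0.31 for S on the log2 scale. *ppp2r5c* was at 0.29 for L and 0.24 for S, and *ppp2r5e* at 0.19 for L and 0.041 for S. The *ppp2r5b* features had few reads, and their SE exceeded their fold change. *ppp2r5b.S* was at -0.56 ± 0.65 (SE), with 0.57 CPM in neil2 MO and 0.87 CPM in control MO on average. *ppp2r5b.L*, at 0.26 ± 0.81, got no adjusted p. The median over the list was 0.043.

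The other cyclins were not called in the unblocked DESeq2 fit. Of 45 tested features of the cyclin list, 0 were raised and 0 lowered, against 1.17% and 1.12% of all features tested, and edgeR called 0. An unadjusted p below 0.05 was found for 2 of the 45, both higher in neil2 MO, and over all features tested for 5.07% higher and 4.76% lower in neil2 MO. The median log2 fold change was 0.097. *ccni*, a relative of the cyclin G genes and the neighbour of *ccng2*, was at 0.036 ± 0.35 (SE) for L and -0.55 ± 0.47 for S. *ccnd1* and *ccne1*, which drive entry into S phase with their kinases, were at 0.16 and 0.28 for the *ccnd1* homeologs L and S and at 0.22 and 0.31 for those of *ccne1*. *ccna1.L*, a cyclin A gene of the germ line and early embryo, measured 5.54, 10.01 and 8.95 CPM in neil2 MO libraries, against 1.89, 5.43 and 5.37 CPM in control MO libraries (1.02 ± 0.39, adjusted p = 0.231 by DESeq2). With the replicate block it was raised, at 1.09 (DESeq2 adjusted p = 0.00389), as was *ccna1.S*, at 1.03 (adjusted p = 0.00574), and the list then had 2 raised features. Without control MO replicate 2 the list had 1.

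Genes of the DNA damage checkpoint response, the group that *ccng1* itself belongs to, contributed 9 raised and 0 lowered of 35 tested features. The shares over all features tested were 1.17% raised and 1.12% lowered. The checkpoint list was drawn up with earlier results of these libraries known, so its count is no independent evidence of its direction. Its median log2 fold change was 0.093. Of the 9, *riok3.S*, an atypical kinase gene, measured 146, 68.4 and 101 CPM in neil2 MO libraries, against 35.1, 16.8 and 20.5 CPM in control MO libraries (2.18 ± 0.29 SE, DESeq2 adjusted p = 1.37e-10). *polk.L*, encoding a translesion DNA polymerase, measured 38.9, 18.4 and 29.6 CPM in neil2 MO libraries, against 14.5, 8.11 and 8.50 CPM in control MO libraries (1.53 ± 0.29, adjusted p = 8.30e-05). Neither overlapped, and replicate 2 was once more the lowest in both groups.

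*eda2r.L*, a receptor gene of the tumor necrosis factor family, had the largest fold of the 9, with 146, 68.5 and 141 CPM in neil2 MO libraries, against 37.1, 8.05 and 7.80 CPM in control MO libraries (2.80 ± 0.78, adjusted p = 0.0243 by DESeq2). Control MO replicate 1 stood above the other control MO libraries there, and without it the log2 fold change was 3.93. The call was lost in 5 of 12 alternatives: under edgeR, and without neil2 MO replicate 1, neil2 MO replicate 3, control MO replicate 2 or control MO replicate 3. The remaining raised features were *riok3.L* (1.15), *aen.L*, an exonuclease gene (1.37), *plk2.L* (1.11) and *plk2.S* (1.42), encoding a polo-like kinase, *sesn2.L*, encoding a sestrin (0.82), and *cdkn1a.L*, encoding a cyclin-dependent kinase inhibitor (0.72), on the log2 scale. Of these, *riok3.L* and *aen.L* lost their call under edgeR alone and *plk2.S* also without neil2 MO replicate 1. *sesn2.L* lost it in 3 of 12 alternatives (edgeR, and without replicate 1 of either group) and *cdkn1a.L* in 4 (the same 3, and without control MO replicate 3). For *plk2.S* the groups overlapped, with 22.6 CPM in neil2 MO replicate 2 and 22.9 CPM in control MO replicate 1. The other homeologs *sesn2.S*, at 0.60, and *cdkn1a.S*, at 0.13, were not called in the unblocked DESeq2 fit, and *aen.S* averaged 2 reads. Under edgeR 3 of the 35 features were raised, namely *riok3.S*, *polk.L* and *plk2.L*, and with the replicate block in DESeq2 11. In edgeR with the block, a fit chosen after the data were seen, each of the 9 was called.

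Of the FoxO factors and genes placed downstream of them in mammals, the class that *ccng2* belongs to there, 2 of 31 tested features were raised and 0 lowered. The shares over all features tested were 1.17% raised and 1.12% lowered. The median log2 fold change of the list was -0.084. *insr.L*, the insulin receptor, measured 38.7, 30.0 and 43.7 CPM in neil2 MO libraries, against 21.1, 19.9 and 19.9 CPM in control MO libraries, without overlap (0.93 ± 0.19 SE, DESeq2 adjusted p = 3.78e-04). Its S homeolog was not called, at 0.057 ± 0.23 (DESeq2 adjusted p = 0.992), nor was *foxo3.L*, at 0.28. *foxo3.S*, a FoxO factor, was at 0.88 ± 0.29 (adjusted p = 0.0981 by DESeq2) and kept its call in 4 of 12 alternatives. With the replicate block 4 features were raised, the added ones being *rbl2.L* (1.00) and *tob1.S* (0.76), and under edgeR 1 was.

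**Figure D4:**
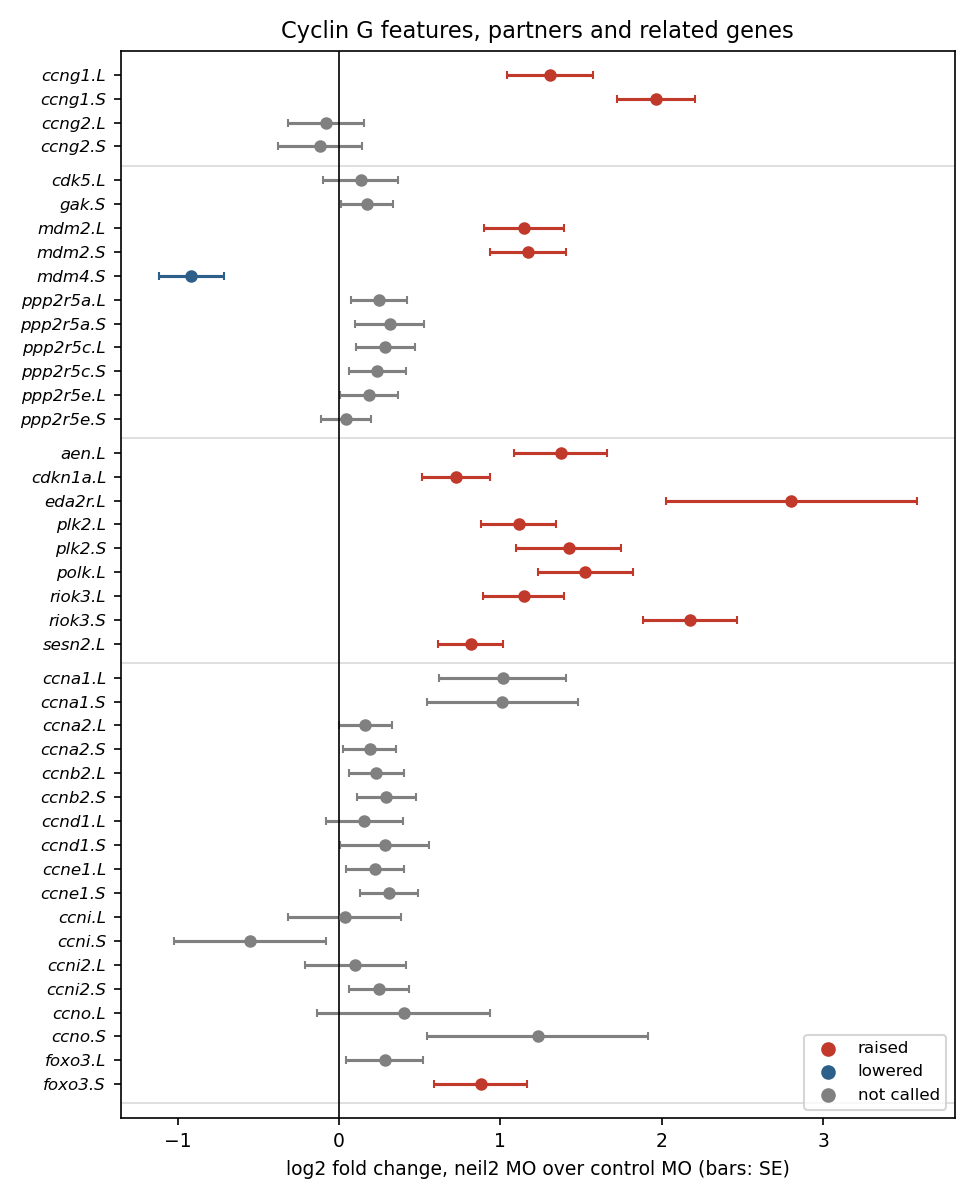
Log2 fold change, neil2 MO over control MO, with its SE. Shown are the 4 cyclin G features, the *mdm2*, *mdm4*, *gak*, *cdk5*, *ppp2r5a*, *ppp2r5c* and *ppp2r5e* features, the 9 raised checkpoint features and some other cyclins with *foxo3*. Other partners and *ppp2r5b* are not shown. Points of raised features are red, of lowered features blue and of features not called grey. The *ccng1* features lie at 1.31 and 1.96, beside *mdm2* at 1.15 and 1.17, and the *ccng2* features lie near 0.

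No marker of the nervous system was called, but their summed level stood apart between the groups. The 24 neural features summed to 1155, 1299 and 1265 CPM in neil2 MO libraries, against 1473, 1504 and 1561 CPM in control MO libraries, all lower in neil2 MO. Over all features tested, 10.3% had this order in CPM. DESeq2 called 0 of the 24, as did edgeR and both fits with a replicate block. Over all features tested, DESeq2 raised 1.17% and lowered 1.12%, so 0 calls in 24 is near these shares. With the block, 693 features were raised and 604 lowered in DESeq2, and 1022 and 1288 in edgeR. An unadjusted p below 0.05 was found for 5 of the 24, all lower in neil2 MO, against 4.76% of all features tested on that side. The fold change was below 0 in 23 of 24, against 48.3% of all features tested. In whole embryos fewer cells of a type and less RNA per cell cannot be told apart, and the part of tissue makeup in the *ccng1* and *ccng2* values was not tested.

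The genes beside the cyclin G genes were looked at by their order in RefSeq (*X. laevis* assembly v10.1), which differs from the build used for counting and was used for order alone. The *ccng1* homeologs lie on chromosomes 3L and 3S and the *ccng2* homeologs on 1L and 1S. The nearest genes with a counted feature of the same symbol were taken, so other genes can lie between. Near *ccng1.L*, *nudcd2.L*, which encodes a NudC-domain protein, was at -0.61 ± 0.28 (SE, DESeq2 adjusted p = 0.399), with 3 genes between. *hmmr.L*, encoding a hyaluronan receptor of the spindle, was at 0.26 ± 0.20 (DESeq2 adjusted p = 0.825), with 4 genes between. Next to *ccng1.S*, *c5orf24.S* was at -0.15 (DESeq2 adjusted p = 0.976). *sec24a.S*, a vesicle coat gene with 3 genes between, was at 0.58 ± 0.99 (DESeq2 adjusted p = 0.977). None of these features was called. The features *gabra6.S*, with 3 genes between it and *ccng1.S*, and *c1qtnf2.L*, with 9 between it and *ccng1.L*, were at or under the floor.

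Near *ccng2*, 1 neighbour was called. *cnot6l.S*, which encodes a deadenylase subunit of the CCR4-NOT complex, averaged 63.5 ± 16.4 CPM in neil2 MO and 31.8 ± 4.31 CPM in control MO embryos (SD, n = 3 each, log2 fold change 1.05 ± 0.23 SE, DESeq2 adjusted p = 0.00127). The call was lost under edgeR, at 1.04, and held in edgeR with the replicate block, at 1.02. Its L homeolog was at -0.066 ± 0.19 (adjusted p = 0.988). *ccni* and *sowahb* features on either chromosome were not called, although *sowahb.S* averaged only 0.63 CPM in neil2 MO and 0.65 CPM in control MO embryos. The *cxcl13* features could not be judged. *cxcl13.L* averaged 0.59 CPM in neil2 MO and 0.38 CPM in control MO embryos and got no adjusted p, and *cxcl13.S* had 0 CPM in both groups.

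The features most like each cyclin G feature were found by Pearson correlation of log2(CPM + 1) over the 6 libraries, among 16354 features with a symbol and a mean count of at least 50. These values are descriptive: the 6 points share the MO contrast and the replicate numbers. Closest to *ccng1.L* were *vipas39.L* (0.997), *polk.L* (0.993), *ckap2.S* (0.993), *pidd1.L* (0.990) and *herc4.L* (0.990). Closest to *ccng1.S* were *gtf3a.L* (0.993), *vegt.L* (0.991), *ankle1.L* (0.989), *tinf2.L* (0.989) and *riok3.S* (0.988). The translesion polymerase gene *polk* and the kinase gene *riok3* in these sets are also raised features of the checkpoint list. By contrast *vipas39.L* and *herc4.L*, at log2 fold changes of 0.66 and 0.54, were not called by DESeq2. The levels and the calls hold the same contrast, so this overlap is no independent evidence.

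For *ccng2* other features came first. Among those closest to *ccng2.L* were *cobll1.S* (0.991), *gng3.L* (0.988), *laptm4a.L* (0.984) and *sugp1.S* (0.977). Those closest to *ccng2.S* were *gpr37l1.S* (0.995), *nlgn2.S* (0.994), *dab2.S* (0.991), *ptk7.S* (0.988) and *nlrp1.L* (0.987). The homeologs of *ccng1* followed each other at 0.951 and those of *ccng2* at 0.545.

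Once the group means were removed, the correlation was 0.855 between the *ccng1* homeologs and 0.524 between the *ccng2* homeologs. *ccng1.L* and *ccng2.L* correlated at 0.268 in their levels and at 0.862 in these deviations, over the same 6 libraries. The deviations of each group sum to 0 and same-numbered libraries deviate together, so high values are easily reached and are descriptive only. The other pairs across the genes differed in their deviations. They stood at 0.104 for *ccng1.L* with *ccng2.S*, 0.565 for *ccng1.S* with *ccng2.L* and -0.398 for *ccng1.S* with *ccng2.S*. The features closest by deviations were *hcls1.L*, *snx6.L*, *ecsit.S*, *rps6ka1.S* and *f2.L* for *ccng1.L*, and *samd4a.S*, *ric8a.S*, *coq9.L*, *hadha.L* and *chst15.L* for *ccng1.S*. For *ccng2.L* they were *epha7.S*, *spin1.L*, *slc6a12.L*, *ccdc92.S* and *cxcl14.L*, and for *ccng2.S* *sh3gl1.L*, *gpr37l1.S*, *znf292.S*, *uso1.S* and *nlgn2.S*, all between 0.994 and 0.999. These features were picked as the highest among 16354.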

How the data were processed

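The deposited values are read counts per gene feature with no normalization. Per the labels and the study's methods, the authors aligned reads with STAR 2.5.4b (at most 2 mismatches) to the *X. laevis* v9.2 assembly with the JGI annotation and counted them with featureCounts 1.5.1 at default settings. The kit does not mark strand, so overlapping and antisense genes cannot be told apart, and reads shared by near-identical homeologs may be uncounted. No 2 libraries agreed within sampling noise. Groups and replicate numbers came from the sample titles. All 3 same-numbered pairs correlated above 0.1 in their deviations, so the numbers were taken to pair the libraries. The labels do not say that numbers share a clutch, and p-values measure the spread between these pools.

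CPM is the count per 1000000 counted reads. DESeq2 1.42.0 in R 4.3.3 (Wald test, Benjamini-Hochberg adjustment, independent filtering) was fitted on the whole table. edgeR 4.0.16 (quasi-likelihood), limma 3.58.1 for L to S ratios (pseudocount 0.5), other scalings, a replicate block, summed homeologs and leaving out each library served as alternatives, and edgeR with the block was chosen after seeing the data. The DESeq2 and edgeR calls without a block were tested on simulated counts that held no replicate effect. The fits with a block and the L to S ratios were not tested in this way. The members and gene lists were chosen with earlier results of these data known. Named genes were the members, in each list the features past both thresholds, the *mdm2*, *mdm4*, *gak*, *cdk5* and *ppp2r5* features, and the 5 features most like each member by levels and by deviations. Some features that this rule or the gene order names are not reported here. The other cyclins, *pcna*, *ppm1d*, *rbl2.L*, *tob1.S* and the neighbouring genes were named after their values were seen. Oligonucleotide sequences came from the study's supplement.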

Additional observations from a re-analysis of the deposited data

How the results depend on the processing

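Both *ccng1* homeologs kept their direction in every alternative run, between 1.11 and 1.66 on the log2 scale for *ccng1.L* with a library left out and between 1.77 and 2.18 for *ccng1.S*. *ccng1.L* was not called under edgeR, at 1.29, and was called in edgeR with the replicate block, at 1.32. With a library left out *ccng2.L* ranged from -0.23 to 0.15, *ccng2.S* from -0.35 to 0.055, and the *ccng2* difference in log2 L to S ratio from -0.18 to 0.20.

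Raised features numbered 71 under edgeR, 693 in DESeq2 with the replicate block, 1022 in edgeR with it and 142 to 311 with a library left out, and lowered features 70, 604, 1288 and 118 to 274. For raised cyclins the block gave 2 in DESeq2 and 3 in edgeR, and leaving out a library 0 to 1. Raised partners numbered 1 under edgeR. They also numbered 1 with summed homeologs, where *mdm2.L* and *mdm2.S* are merged into 1 feature. Raised checkpoint features numbered 3 under edgeR and 5 to 10 with a library left out, and 1 was lowered in edgeR with the block. Raised FoxO-related features numbered 1 under edgeR, with TMM factors, without independent filtering, at a mean count of at least 10 and with summed homeologs, 4 in DESeq2 with the block, 5 in edgeR with it and 1 to 3 with a library left out. The cause of the other changes was not tested. Each group had 3 libraries, and an S share of *ccng2* carried a counting interval several points wide.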

Other observations

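The primer pair that the study's supplement lists for quantitative PCR of *ccng1* is the same, base for base, as the pair it lists for *aen*. The supplement lists a different hydrolysis probe for each of these genes, so the assays were not listed as the same in every part. The primer sequences are printed, 5′ to 3′, because they bear, with the probe, on which gene such an assay would read.
ccng1 forward primer: tttgccagctgaactcactc
ccng1 reverse primer: caatcaaacgtaaaccacaagc
aen forward primer: tttgccagctgaactcactc
aen reverse primer: caatcaaacgtaaaccacaagc
The gene the pair amplifies was not determined here. The study also reported higher *ccng1* after neil2 MO by in situ hybridization, which does not use these primers. The RNA-seq counts do not depend on these primers, and in them *ccng1.L* and *aen.L* had log2 fold changes of 1.31 ± 0.26 and 1.37 ± 0.29 (SE), neil2 MO over control MO.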
